A study of Mus musculus with 4 samples.

Results

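The genes described here carry a cell through mitosis: cyclins and their transcription factor, mitotic kinases and the spindle checkpoint, the anaphase promoting complex and its partners, the chromosomal passenger complex, centromere and kinetochore proteins, condensin subunits, kinesins, and proteins of the spindle and the cleavage furrow. They were listed by name, 47 genes of the 55341 in the count tables, and kept where at least 2 of the 4 libraries reached 0.5 CPM, the count of a gene per 1000000 counts in its library. Of the 47 genes, 46 were kept and all 46 were among the 16617 genes tested. The kinesin gene Kif11 was listed at 0 in all 4 libraries and has no value here.

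RNA-seq was performed on cerebellar tissue of mice at postnatal day 14, with 2 Kdm6b-cKO and 2 WT libraries, each from an individual mouse per the study's methods. Both genotypes were homozygous for a floxed Kdm6b allele (Kdm6b fl/fl), in which loxP sites flank exons coding for the catalytic JmjC domain of KDM6B, an enzyme that demethylates lysine 27 of histone H3. The cKO animals also carried Atoh1-Cre, whose recombinase is active in granule neuron precursors (GNPs), and recombination was not measured here in these or in other cells, while WT animals were littermates without Cre. The comparison asks how the level of mitotic transcripts differed in tissue where deletion of Kdm6b was directed at the granule neuron lineage.

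Most mitotic genes are silent in resting cells and are switched on as a cell approaches division. In the postnatal cerebellum GNPs of the external granule layer divide in large numbers under Sonic hedgehog and then leave the cycle, and by the age studied this layer is being used up, while precursors of oligodendrocytes and some glial and vascular cells still divide. Mitotic transcripts in whole tissue therefore come from a small share of its cells. In bulk RNA a larger number of dividing cells and more mitotic RNA in each of them cannot be told apart.

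Libraries held 9892363 and 8811849 counts in genes in cKO 1 and cKO 2, and 9358139 and 9421970 in WT 1 and WT 2, so that 1 CPM stood for 8.81 to 9.89 counts. Kdm6b was at 127 and 119 CPM in cKO and 154 and 154 CPM in WT (log2 fold change -0.33 ± 0.08 SE, edgeR adjusted p = 0.0162), a count over the whole gene and not over the floxed exons alone. Of 4 libraries, WT 1 showed the male pattern of sex-linked genes (Xist at 0.43 CPM, Ddx3y at 70.5 CPM) and the other 3 the female pattern (Xist at 1409 and 1599 CPM in cKO and 1359 CPM in WT 2), so sex ran partly with genotype. Summed CPM of 6 choroid plexus markers was 688 and 41.9 in cKO 1 and cKO 2, against 34.3 and 37.1 in WT, so markers of this neighbouring tissue were high in cKO 1 alone. A single marker held 6043 counts in cKO 1, where 1 CPM stood for 9.89 counts, so most of that sum came from 1 gene. Of the 6, 4 were tested and 2 were called higher at an adjusted p under 0.05 (edgeR), where 1.87% of all genes tested were. Summed CPM of 6 granule neuron markers was 3811 and 3833 in cKO and 3632 and 3840 in WT, and none of the 6 was at 0. Of these, Gabra6 was called lower and Pax6 higher (edgeR), where 2.17% and 1.87% of all genes tested were. The part of sex and of choroid plexus in the values below was not tested beyond fits that leave out each library.

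Of the 46 mitotic genes 7 rose in cKO and 39 did not pass, and 43 were at a higher level in cKO 2 than in cKO 1. The 7 rose past the threshold (Benjamini-Hochberg adjusted p under 0.05 in edgeR's quasi-likelihood test, adjusted over all 16617 genes), where 1.87% of all genes tested were called higher. None was called lower, where 2.17% of all genes were. At an unadjusted p under 0.05, 20 of 46 were higher and 1, Anln, was lower, where 7.81% of all genes tested were higher and 8.50% lower. The fitted log2 fold change of cKO over WT, on which 1 is a 2-fold difference, was above 0 for 44 of 46 genes, with a median of 0.45, against a median of 0.0036 over all genes tested. The 2 genes below 0 were Anln and Aurka. In 27 of 46 genes both cKO libraries lay above both WT libraries (58.7%, against 23.2% of all genes tested), and in 2 both lay below (Anln and Aurka; 23.2% of all genes).

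The 2 cKO libraries differed from each other. Relative to the WT mean, the median log2 ratio over the 46 genes was 0.18 in cKO 1 and 0.86 in cKO 2, beside -0.14 in WT 1 and 0.13 in WT 2. In cKO 1, 28 genes lay above both WT libraries and 9 below both, and in cKO 2 43 lay above and 2 below. Over all genes tested, 36.9% lay above both WT libraries in cKO 1 and 38.5% in cKO 2. A total of 43 of the 46 mitotic genes were higher in cKO 2 than in cKO 1 (93.5%, against 50.1% of all genes), while 33 were higher in WT 2 than in WT 1 (71.7%, against 50.6%). The genes together took 0.0350% of the counts in cKO 1 (95% Wilson interval 0.0339% to 0.0362%) and 0.0530% in cKO 2 (0.0515% to 0.0546%), against 0.0295% in WT 1 (0.0284% to 0.0306%) and 0.0329% in WT 2 (0.0318% to 0.0341%), intervals that cover counting error only. The order of these shares was thus cKO 2, cKO 1, WT 2, WT 1, with cKO 1 nearer to WT 2 than to cKO 2.

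**Figure D1:**
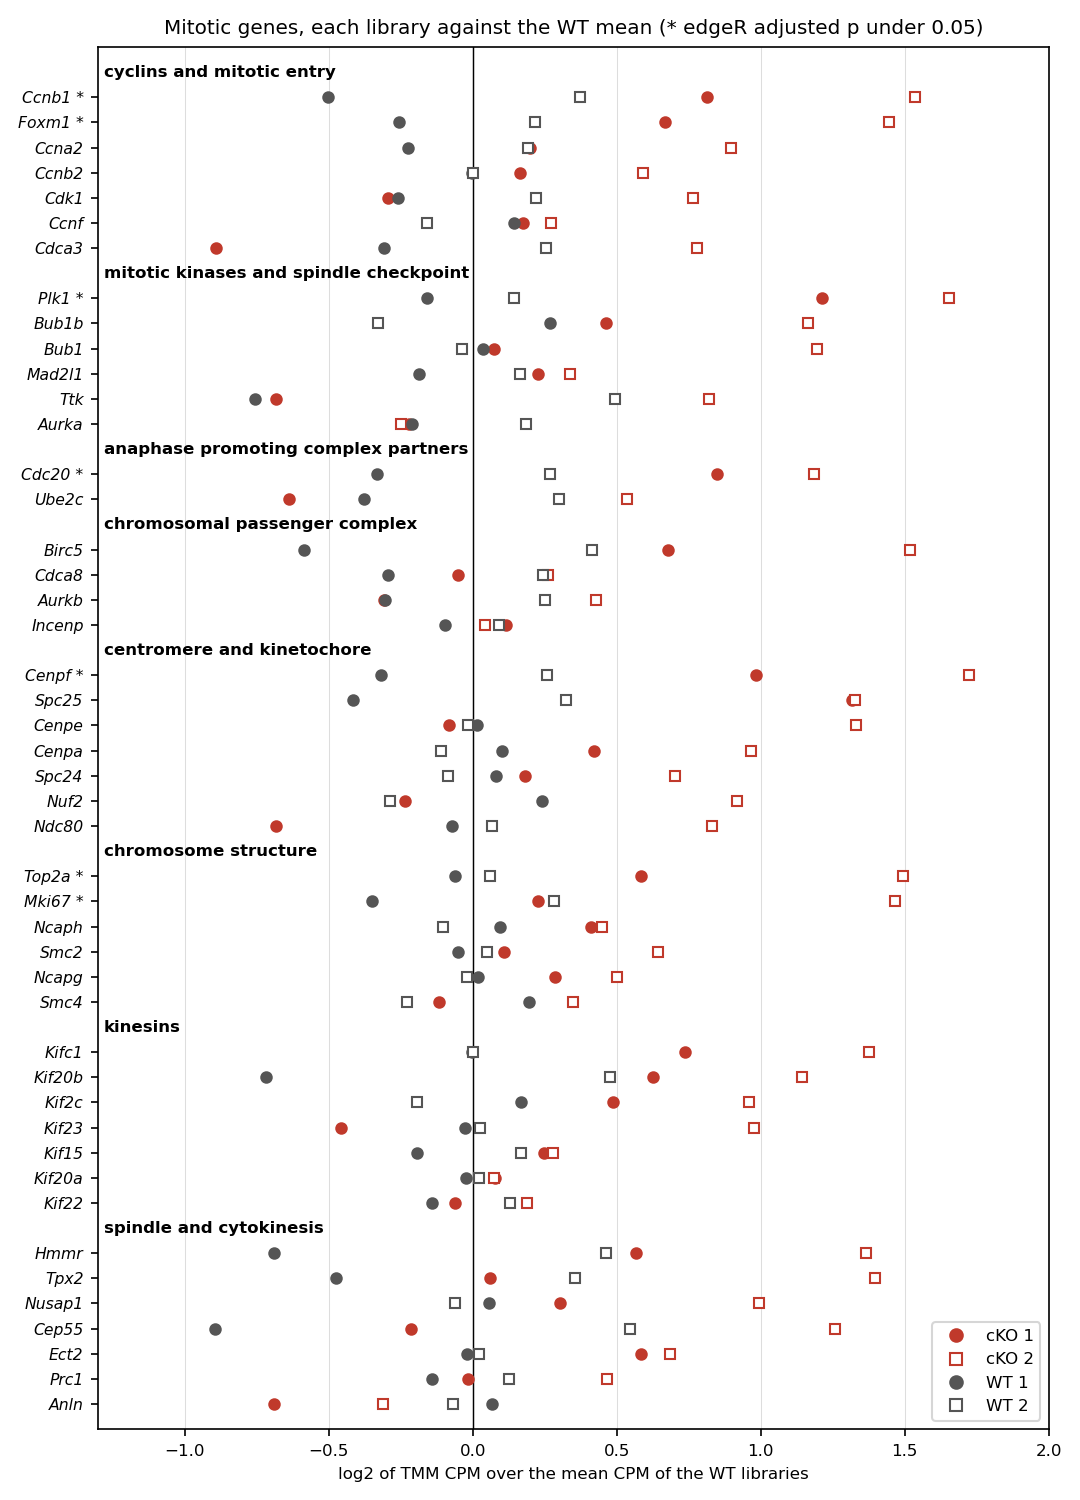
Log2 ratio of TMM-scaled CPM to the mean of the WT libraries for 46 mitotic genes (horizontal axis), grouped by role and ordered by fitted fold change within a role, with 1 point per library. Open red squares (cKO 2) lie to the right of both WT libraries in 43 of 46 genes and filled red circles (cKO 1) in 28, and only for Anln and Aurka are both cKO points to the left of both WT points.

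Few reads lay behind each gene. Counts per gene and library ran from 7 to 427, and the median over the 46 genes of the mean CPM was 5.70, against 22.2 over all genes tested. The 35 genes with a mean under 10 CPM had a median log2 fold change of 0.63 with 4 called higher, and the 11 genes at or above 10 CPM had a median of 0.24 with 3 called higher. With 2 libraries per group, an exact permutation test of a single gene cannot go below p = 0.333 (two-sided), so every adjusted p here comes from the edgeR fit, which shares its estimate of spread across genes.

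The genes that rose stand at different steps of division. Cenpf encodes a large protein of the outer kinetochore and the nuclear envelope that builds up in G2. It was at 12.5 and 20.8 CPM in cKO and at 5.07 and 7.56 CPM in WT (log2 fold change 1.39 ± 0.25 SE, edgeR adjusted p = 0.00167). Both cKO libraries lay well above both WT libraries, and Cenpf had the smallest adjusted p of the 46 genes. Top2a encodes topoisomerase II alpha, which untangles sister chromatids. It was at 21.5 and 40.3 CPM in cKO and 13.7 and 14.9 CPM in WT (log2 fold change 1.10 ± 0.21 SE, edgeR adjusted p = 0.003085), with WT libraries close to each other and cKO 2 far above cKO 1.

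Ccnb1 (chr13:100778650-100786570 of GRCm38, minus strand) encodes cyclin B1, which activates CDK1 for entry into mitosis. Its level was 6.45 and 10.6 CPM in cKO, against 2.59 and 4.75 CPM in WT (log2 fold change 1.21 ± 0.31 SE, edgeR adjusted p = 0.0323). Of its transcript windows of 150 bases, 8.20% also occur in other annotated genes, the Ccnb1 pseudogene copies among them, so part of its reads could not be assigned to it alone. Foxm1 (chr6:128362967-128376146, plus strand), the transcription factor that drives G2 and M phase genes, was at 6.35 and 10.9 CPM in cKO and 3.34 and 4.64 CPM in WT (log2 fold change 1.10 ± 0.30 SE, edgeR adjusted p = 0.0394). Ccnb1 and Foxm1 both rose without overlap between the groups, where 23.2% of all genes tested lay likewise. Whether the rise of 1 bears on the other was not tested.

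Plk1, the polo-like kinase of centrosome maturation and mitotic exit, had the largest fitted change of the 46 genes. It was at 3.63 and 4.93 CPM in cKO, against 1.40 and 1.73 CPM in WT (log2 fold change 1.44 ± 0.39 SE, edgeR adjusted p = 0.0398), on low counts. Cdc20, the activator of the anaphase promoting complex on which the spindle checkpoint acts, was at 8.06 and 10.2 CPM in cKO and 3.56 and 5.40 CPM in WT (log2 fold change 1.02 ± 0.27 SE, edgeR adjusted p = 0.0331). For both genes the lower cKO library exceeded the higher WT library.

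Mki67 encodes Ki-67, the coat protein of mitotic chromosomes used to mark cycling cells. It was at 20.3 and 47.8 CPM in cKO and at 13.6 and 21.1 CPM in WT (log2 fold change 0.96 ± 0.26 SE, edgeR adjusted p = 0.0385). Of the 7 called genes it was the only one whose groups overlapped: cKO 1 lay just below WT 2, and only cKO 2 lay above both WT libraries.

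**Figure D2:**
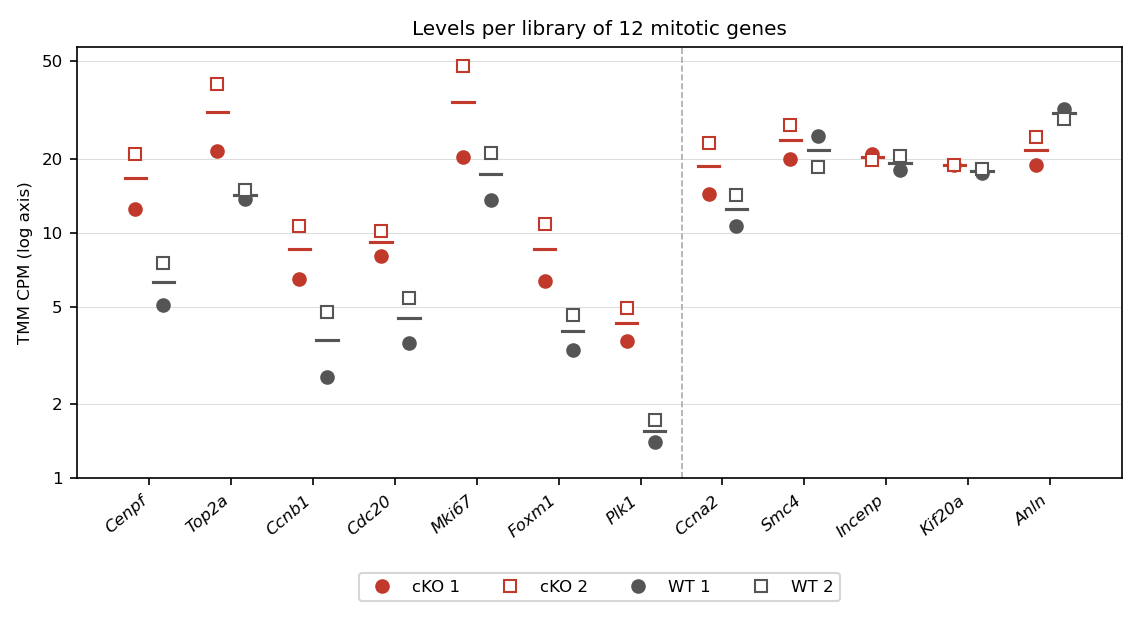
TMM-scaled CPM per library (log axis) of the 7 genes called higher, left of the dashed line, and of 5 abundant genes that were not called, with cKO in red left of WT in grey and bars at group means. In Cenpf, Top2a, Ccnb1, Cdc20, Foxm1 and Plk1 both red points lie above both grey points, in Mki67 cKO 1 (20.3 CPM) falls below WT 2 (21.1 CPM), and in Anln both red points lie below both grey points.

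Mitotic promoters are known to share 2 kinds of element: the cell cycle genes homology region (CHR), bound by the MuvB complex, which holds the gene silent in resting cells and activates it in G2, and CCAAT boxes, bound by NF-Y. RefSeq promoters (table of GRCm38.p6, 250 bases before to 50 after the start) were found for 38 of the 46 genes. Shown are 6 promoters that hold a CHR word, taken by smallest p in edgeR among the genes selected for full statistics. They belong to 5 genes that rose and to Anln. They are chr1:189688037-189688236 on the minus strand for Cenpf, chr11:99024140-99024339 on the minus strand for Top2a, chr4:118437294-118437493 on the minus strand for Cdc20, chr7:135716330-135716529 on the minus strand for Mki67, chr7:122159285-122159484 on the plus strand for Plk1 and chr9:22389157-22389356 on the minus strand for Anln. Each runs 5′ to 3′ on the gene's strand over the last 150 bases before the start and the first 50 after it, with CHR words (TTTGAA or TTCGAA) and CCAAT in capitals in either orientation, so that TTCAAA and ATTGG are the same words on the opposite strand.
Cenpf: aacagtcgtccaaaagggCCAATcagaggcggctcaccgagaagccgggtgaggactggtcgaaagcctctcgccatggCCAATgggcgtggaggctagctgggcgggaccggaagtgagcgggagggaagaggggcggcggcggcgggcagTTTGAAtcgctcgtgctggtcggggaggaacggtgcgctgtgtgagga
Top2a: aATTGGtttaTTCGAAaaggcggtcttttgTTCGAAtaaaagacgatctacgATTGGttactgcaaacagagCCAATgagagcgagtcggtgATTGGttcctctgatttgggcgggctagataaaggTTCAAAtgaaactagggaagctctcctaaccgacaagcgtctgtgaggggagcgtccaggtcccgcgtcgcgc
Cdc20: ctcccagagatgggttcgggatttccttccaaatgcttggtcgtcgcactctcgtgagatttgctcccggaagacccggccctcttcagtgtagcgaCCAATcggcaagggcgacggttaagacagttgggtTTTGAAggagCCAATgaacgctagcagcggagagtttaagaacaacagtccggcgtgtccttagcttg
Mki67: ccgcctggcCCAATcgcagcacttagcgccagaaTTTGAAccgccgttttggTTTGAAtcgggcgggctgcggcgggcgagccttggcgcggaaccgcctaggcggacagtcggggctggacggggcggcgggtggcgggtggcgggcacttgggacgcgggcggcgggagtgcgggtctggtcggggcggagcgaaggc
Plk1: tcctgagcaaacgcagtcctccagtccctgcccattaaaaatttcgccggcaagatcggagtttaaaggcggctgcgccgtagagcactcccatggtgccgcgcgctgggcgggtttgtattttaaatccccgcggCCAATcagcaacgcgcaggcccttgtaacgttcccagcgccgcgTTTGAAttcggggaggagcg
Anln: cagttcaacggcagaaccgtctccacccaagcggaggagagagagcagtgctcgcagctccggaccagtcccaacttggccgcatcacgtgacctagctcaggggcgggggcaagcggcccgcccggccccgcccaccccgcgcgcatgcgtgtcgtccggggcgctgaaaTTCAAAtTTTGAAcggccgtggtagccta
Positions are counted from 0 at the start, with negative values before it, and give the first base of a word. In Cenpf a single CHR word began at 2 and CCAAT at -132 and -71. In Cdc20 a CHR word at -18 lay between CCAAT at -53 and -8, and in Plk1 the CHR word lay at 30 and CCAAT at -14. Top2a held 4 CHR words and 6 CCAAT words in its whole window. Mki67 had its CHR words farther up, at -116 and -98. Anln had a pair of CHR words side by side, at 21 and 28, and no CCAAT. Top2a had its nearest CHR word at -23, so that Mki67 alone of the 6 had none within 50 bases of the start.

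Over the 38 promoters, 31 held a CHR word (81.6%), against 21.7% of the 27025 genes in the promoter table, and 27 held CCAAT (71.1%, against 41.1%). Both were present in 25 (65.8%, against 8.61%), and 20 held at least 2 CCAAT words (52.6%, against 13.3%). A CHR word within 50 bases of the start, a window set after the positions had been seen, was present in 29 (76.3%, against 6.12%). E2F words (TTTCCCGC, TTTCGCGC, TTTGCCGC or TTTGGCGC) were found in 3 (7.89%, against 2.6%). Of the 7 genes that rose, 6 had a promoter in the table, 5 of these held a CHR word (not Ccnb1) and all 6 held CCAAT. Of the 32 promoters of genes that were not called, 26 held a CHR word (81.2%) and 21 held CCAAT (65.6%), so the words were common in both. These are matches of letters, not measured binding sites.

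**Figure D3:**
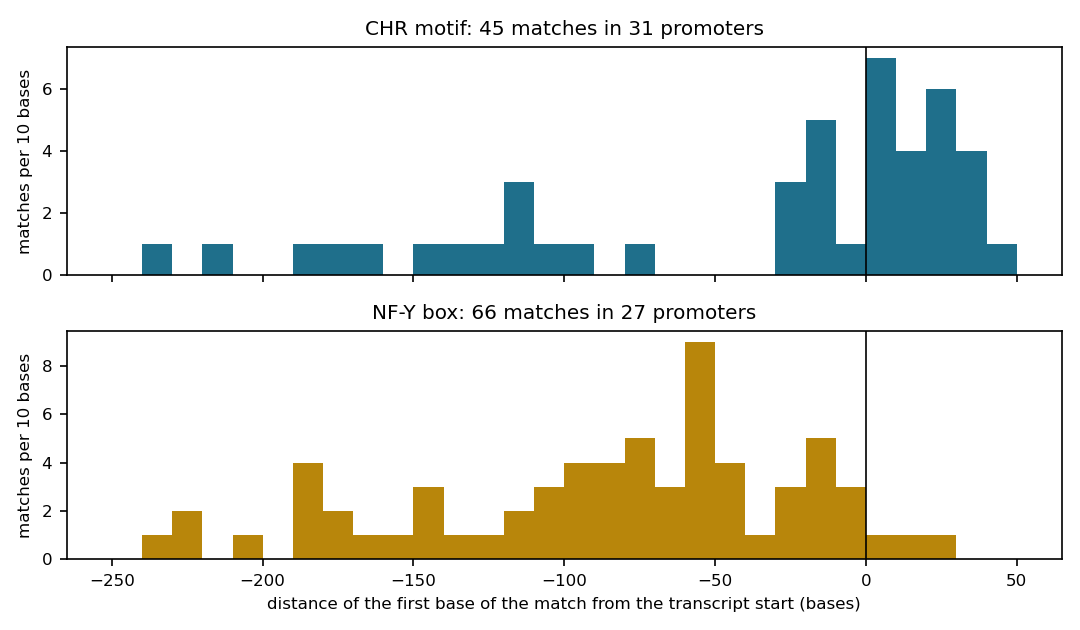
Positions of CHR words (upper panel, 45 matches in 31 promoters) and of CCAAT words bound by NF-Y (lower panel, 66 matches in 27 promoters), counted in bins of 10 bases from 250 bases before to 50 after the transcript start (0, vertical line). The median position is -5 for CHR words and -72.5 for CCAAT words.

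For each role group below, the share of all genes tested that were called higher was 1.87%. Among cyclins and other genes of mitotic entry, 2 of 7 rose (Ccnb1 and Foxm1), and the median log2 fold change of the 7 was 0.38. Ccna2, which encodes cyclin A2 of S and G2 phase, was at 14.3 and 23.2 CPM in cKO and 10.7 and 14.3 CPM in WT (log2 fold change 0.58 ± 0.21 SE, edgeR adjusted p = 0.135), with cKO 1 at the level of WT 2. Cdk1, the kinase that these cyclins activate, was at 2.42 and 5.04 CPM in cKO and 2.48 and 3.46 CPM in WT (log2 fold change 0.31 ± 0.38 SE, edgeR adjusted p = 0.760). Levels of the kinase thus overlapped between groups where its cyclin B1 did not. Ccnf, which encodes the F-box protein cyclin F, was at 8.16 and 8.74 CPM in cKO and 7.98 and 6.48 CPM in WT, a difference within 0.22 on the log2 scale that did not pass (edgeR adjusted p = 0.706). Ccnb2 and Cdca3 had log2 fold changes of 0.38 and 0.15, neither past the threshold, and Cdca3 was split between 1.51 CPM in cKO 1 and 4.82 CPM in cKO 2, on either side of WT at 2.27 and 3.35 CPM.

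Of the 6 mitotic kinases and spindle checkpoint genes, 1 rose (Plk1), with a median of 0.50. Bub1b encodes BUBR1, a checkpoint protein that restrains CDC20. It was at 6.55 and 10.6 CPM in cKO and 5.72 and 3.78 CPM in WT (log2 fold change 0.85 ± 0.29 SE, edgeR adjusted p = 0.109), without overlap. Mad2l1, which encodes the checkpoint protein MAD2, was at 10.5 and 11.3 CPM in cKO and 7.87 and 10.04 CPM in WT (log2 fold change 0.28 ± 0.21 SE, edgeR adjusted p = 0.548). Bub1, a checkpoint kinase gene, was at 2.22 and 4.82 CPM in cKO and 2.16 and 2.05 CPM in WT. Its cKO 1 level was thus close to WT and its cKO 2 level above it, and Ttk, another checkpoint kinase gene, was at 0.907 and 2.58 CPM in cKO and 0.863 and 2.05 CPM in WT. Aurka, the Aurora kinase of the spindle poles, was at 1.71 and 1.68 CPM in cKO and 1.73 and 2.27 CPM in WT (log2 fold change -0.23 ± 0.44 SE, edgeR adjusted p = 0.858). On 15 to 21 counts this difference was not detectable, and both cKO levels were close to that of WT 1.

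Both partners of the anaphase promoting complex that were listed bear on its use in mitosis, and 1 of 2 rose. Beside Cdc20, Ube2c, the ubiquitin-conjugating enzyme that works with the complex, was at 3.33 and 7.51 CPM in cKO and 3.99 and 6.37 CPM in WT (log2 fold change 0.05 ± 0.34 SE, edgeR adjusted p = 0.968). Groups overlapped fully, with both WT libraries between the cKO libraries, and 22.8% of the Ube2c exon bases lie over exons of Tnnc2 on the opposite strand.

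None of the 4 genes of the chromosomal passenger complex passed (edgeR, 1 of 4 higher at an unadjusted p under 0.05, against 7.81% of all genes). Their median of 0.10 was the lowest of the 8 role groups. The complex, made of Aurora B kinase (Aurkb), INCENP, survivin (Birc5) and borealin (Cdca8), corrects faulty attachments of chromosomes to the spindle. Incenp was at 20.9 and 19.8 CPM in cKO and 18.0 and 20.5 CPM in WT (log2 fold change 0.08 ± 0.15 SE, edgeR adjusted p = 0.854), and per kilobase of exon it was the most abundant of the 46 genes (4.58 CPM per kb). Cdca8 was at 7.66 and 9.52 CPM in cKO and 6.47 and 9.39 CPM in WT (log2 fold change 0.11 ± 0.24 SE). Both differences were smaller than their standard error. Birc5 differed from its partners, with 1.81 and 3.25 CPM in cKO and 0.755 and 1.51 CPM in WT and no overlap, but on 7 to 29 counts it did not pass (log2 fold change 1.14 ± 0.50 SE, edgeR adjusted p = 0.248). Aurkb had a log2 fold change of 0.10.

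Centromere and kinetochore genes had the highest median of the role groups, 0.71, and 1 of 7 rose (Cenpf). Cenpe, the kinetochore kinesin that moves chromosomes to the spindle equator, was at 4.33 and 11.5 CPM in cKO and 4.64 and 4.54 CPM in WT (log2 fold change 0.77 ± 0.34 SE, edgeR adjusted p = 0.255). Cenpe was thus high in cKO 2 alone, and cKO 1 lay below both WT libraries. The 4 subunits of the NDC80 complex, which binds microtubules at the kinetochore, were not called. Spc25 was at 3.23 and 3.25 CPM in cKO and 0.971 and 1.62 CPM in WT (log2 fold change 1.31 ± 0.43 SE, edgeR adjusted p = 0.101), and was alone among these subunits in having like levels in both cKO libraries. Ndc80 itself was at 0.706 and 2.02 CPM in cKO and 1.08 and 1.19 CPM in WT, and had the lowest level per kilobase of the 46 genes (0.192 CPM per kb). Nuf2 and Spc24 had log2 fold changes of 0.44 and 0.46, and Cenpa, the histone H3 variant that marks centromeres, 0.71 without overlap between the groups.

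In the chromosome structure group 2 of 6 rose (Top2a and Mki67), with a median of 0.41. The other 4 were subunits of condensin, the complex that compacts mitotic chromosomes, and none of them passed. Smc4, the highest of them per kilobase, was at 19.96 and 27.6 CPM in cKO and 24.8 and 18.5 CPM in WT (log2 fold change 0.13 ± 0.17 SE, edgeR adjusted p = 0.774), with the groups interleaved. Smc2, Ncapg and Ncaph had log2 fold changes of 0.40, 0.39 and 0.43. Both cKO libraries lay above both WT libraries for each of these 3, where 23.2% of all genes tested did so. For Smc2 the ranges were 15.3 to 22.2 CPM in cKO and 13.7 to 14.7 CPM in WT.

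No kinesin passed (edgeR, 2 of 7 higher at an unadjusted p under 0.05, against 7.81% of all genes), with a median of 0.41. Per kilobase the highest were Kif22, a motor that binds chromosome arms, and Kif20a, a motor of the central spindle. Kif22 was at 18.3 and 21.8 CPM in cKO and 17.4 and 20.9 CPM in WT (log2 fold change 0.07 ± 0.16 SE, edgeR adjusted p = 0.892). Kif20a was at 18.8 and 18.8 CPM in cKO and 17.6 and 18.1 CPM in WT (log2 fold change 0.08 ± 0.15 SE, edgeR adjusted p = 0.863), a narrow spread beside that of other kinesins. Exons of Cdc23, on the opposite strand, cover 29.3% of the Kif20a exon bases, and without a stated strand setting reads of the 2 genes cannot be told apart there. Kifc1, a minus-end motor that focuses spindle poles, came nearest to a call, at 5.04 and 7.84 CPM in cKO and 3.02 and 3.02 CPM in WT (log2 fold change 1.08 ± 0.32 SE, edgeR adjusted p = 0.0576), with 7.35% of its transcript windows shared with the near copy Kifc5b. The others had log2 fold changes of 0.90 for Kif20b, 0.73 for Kif2c, 0.41 for Kif23 and 0.26 for Kif15.

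Of the 7 genes of the spindle and cytokinesis none passed (edgeR). At an unadjusted p under 0.05, 4 were higher and 1 lower, against 7.81% and 8.50% of all genes. The 7 held both a high median, 0.68, and the lowest value of all 46 genes. Prc1 encodes the protein that bundles the central spindle. It was at 13.4 and 18.7 CPM in cKO and 12.3 and 14.8 CPM in WT (log2 fold change 0.24 ± 0.19 SE, edgeR adjusted p = 0.579). Tpx2, which activates Aurora A on spindle microtubules, was at 6.25 and 15.8 CPM in cKO and 4.31 and 7.67 CPM in WT (log2 fold change 0.86 ± 0.33 SE, edgeR adjusted p = 0.173). Its groups overlapped through cKO 1, which lay between the WT libraries. Hmmr, Nusap1, Cep55 and Ect2 had log2 fold changes of 1.005, 0.68, 0.68 and 0.63, all with edgeR adjusted p above the threshold (0.143 to 0.590).

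Anln encodes anillin, a scaffold of the cleavage furrow. It was at 19.0 and 24.6 CPM in cKO and 32.0 and 29.2 CPM in WT (log2 fold change -0.49 ± 0.14 SE, edgeR adjusted p = 0.0535), just outside the threshold and called lower under 4 of the alternative settings. Both cKO libraries lay below both WT libraries, the opposite of the 27 genes above. Myelinating oligodendrocytes are also known to express Anln. A set of 7 markers of these cells was chosen after the values of Anln had been seen. Of them 0 were called higher and 1 lower (edgeR), where 1.87% and 2.17% of all genes were. At an unadjusted p under 0.05, 0 were higher and 2 lower, where 7.81% and 8.50% of all genes were. The one called lower was Mal, a protein of myelin membranes (log2 fold change -0.30 ± 0.08 SE, edgeR adjusted p = 0.0297). Summed CPM of the 7 was 6178 and 6278 in cKO and 6871 and 6549 in WT, with a median log2 fold change of -0.11. Their part in the values of Anln was not tested.

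Per kilobase of exon, the highest of the 46 genes were Incenp (4.58 CPM per kb), Smc4 (4.36), Kif20a (4.23), Kif22 (4.003) and Ccna2 (3.82), and none of these 5 passed. Cdc20 followed at 3.64 CPM per kb, the highest of the genes that rose. The lowest were Ndc80 (0.192), Ttk (0.325), Hmmr (0.436) and Kif23 (0.473). In 13 of the 46 genes some exon bases overlap another gene (0.103% to 29.3% of them). Of the 33 with no overlap 3 rose (Ccnb1, Cenpf and Mki67), and their median of 0.46 was close to that of all 46.

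Other genes of the cell cycle were read from the same fit. A list of 67 further genes that are likewise expressed in G2 and M phase had 58 tested, of which 1 rose and none fell (edgeR, 17 higher and 2 lower at an unadjusted p under 0.05, where 7.81% of all genes were higher and 8.50% lower). A single call in 58 is near the 1.87% of all genes. The one that rose was Arhgap11a, a GTPase activating protein, at 8.77 and 15.5 CPM in cKO and 5.61 and 7.23 CPM in WT (log2 fold change 0.91 ± 0.26 SE, edgeR adjusted p = 0.0493). Their median log2 fold change was 0.37, and their median ratio to the WT mean was 0.09 in cKO 1 and 0.77 in cKO 2. Both lists were read in the same 2 cKO libraries.

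Of 46 genes of the mitotic machinery that resting cells also express, such as core subunits of the anaphase promoting complex and cohesin, 1 rose and none fell (edgeR, 5 higher and 1 lower at an unadjusted p under 0.05), counts near the shares of all genes (1.87% called higher, 7.81% higher without adjustment), with a median of 0.06 and library medians of 0.02 in cKO 1 and 0.07 in cKO 2. The one that rose was Cdk2, a kinase of the G1 to S transition, at 9.27 and 6.72 CPM in cKO and 3.34 and 3.46 CPM in WT (log2 fold change 1.24 ± 0.28 SE, edgeR adjusted p = 0.0135). Here cKO 1 was the higher cKO library, unlike in 43 of the 46 mitotic genes.

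Of 33 S phase genes 2 rose and none fell (edgeR), where 1.87% of all genes were called higher and 2.17% lower. At an unadjusted p under 0.05, 8 were higher and 0 lower, where 7.81% and 8.50% of all genes were. The S phase genes had a median of 0.34, with library medians of 0.08 in cKO 1 and 0.42 in cKO 2. E2f1, a transcription factor of S phase entry, was at 18.4 and 20.9 CPM in cKO and 10.1 and 11.99 CPM in WT (log2 fold change 0.83 ± 0.17 SE, edgeR adjusted p = 0.00630). Uhrf1, which maintains DNA methylation at replication forks, was at 6.15 and 12.3 CPM in cKO and 3.88 and 4.32 CPM in WT (log2 fold change 1.16 ± 0.30 SE, edgeR adjusted p = 0.0340). E2f1 was raised about alike in both cKO libraries, and Uhrf1 more in cKO 2.

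Of 16 genes for MuvB, pocket proteins, E2F partners and NF-Y, 15 were tested and only Foxm1, itself one of the 46, rose (edgeR). The shares of all genes called were 1.87% higher and 2.17% lower. At an unadjusted p under 0.05, 4 of the 15 were higher and 0 lower, where 7.81% and 8.50% of all genes were. The median of the 15 was -0.0092. Mybl2, which joins MuvB in S phase and is also in the list of 67, was at 2.52 and 3.02 CPM in cKO and 1.40 and 1.40 CPM in WT (log2 fold change 0.97 ± 0.43 SE, edgeR adjusted p = 0.258), and the MuvB subunit Lin9 at 10.8 and 12.2 CPM in cKO and 11.2 and 13.4 CPM in WT. None of these lists was tested against the others.

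**Figure D4:**
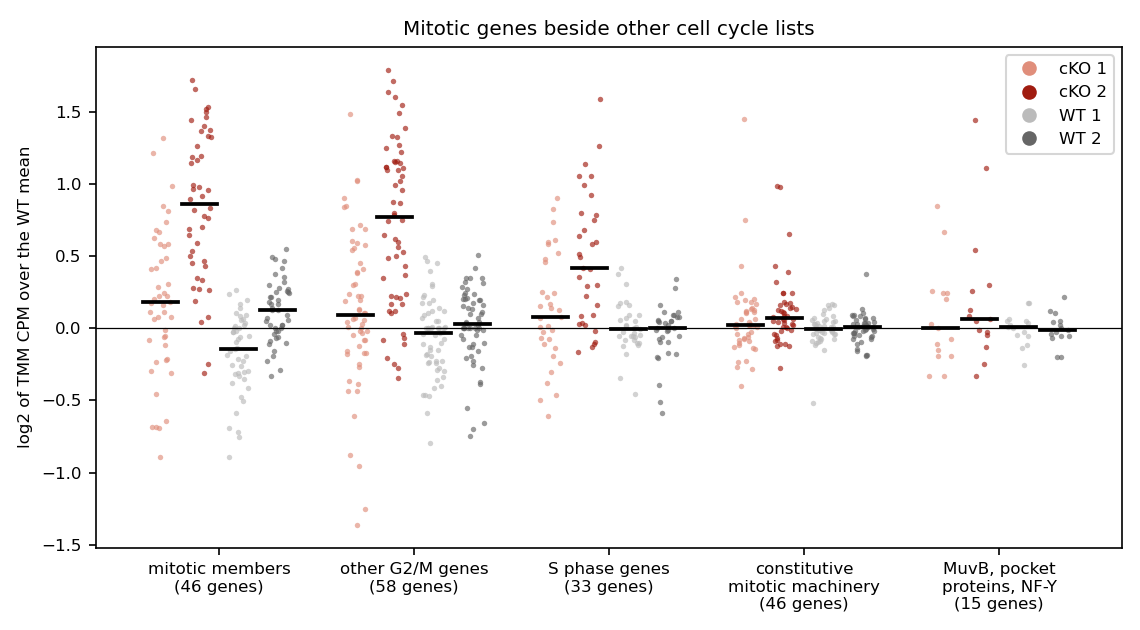
Log2 ratio of TMM-scaled CPM to the WT mean (vertical axis) for each gene of 5 lists, 1 point per gene and library, with cKO 1 and cKO 2 left of WT 1 and WT 2 and black bars at medians. The cKO 2 median is 0.86 for the 46 mitotic genes, 0.77 for 58 other G2 and M phase genes, 0.42 for 33 S phase genes, and 0.07 and 0.06 for constitutive mitotic machinery and for MuvB, pocket protein and NF-Y genes.

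Markers of the cells that could supply mitotic RNA moved as follows. Of 10 GNP markers 9 were tested, and 3 rose and none fell (edgeR), where 1.87% of all genes were called higher and 2.17% lower. At an unadjusted p under 0.05, 3 were higher and 1 lower, where 7.81% and 8.50% of all genes were. The 3 that rose were Barhl1, a homeobox factor of the granule lineage, at 63.3 and 94.9 CPM in cKO and 37.4 and 45.1 CPM in WT (log2 fold change 0.93 ± 0.14 SE, edgeR adjusted p = 0.000334), Sfrp1, a secreted Wnt antagonist, at 27.0 and 39.1 CPM in cKO and 16.8 and 15.3 CPM in WT (1.03 ± 0.16 SE, edgeR adjusted p = 0.000579), and Ccnd2, a G1 cyclin. Each was higher in cKO 2 than in cKO 1, as 43 of the mitotic genes were. Over the 9 tested markers the median log2 fold change was 0.02, with 5 above 0 and 4 below it, from -0.59 to 1.03. Gli1, Ptch1 and Ccnd1, among the listed genes that respond to Sonic hedgehog, lay between -0.08 and 0.02. The lowest value, -0.59, belonged to 1 of Mycn, Gli2 and Hhip, the other tested markers, whose values are not given here. Both cKO libraries lay above both WT libraries in 3 of the 9 and below both in 2, where 23.2% of all genes did in each direction. Atoh1, the defining marker, was at 0.504 and 2.02 CPM in cKO and 0.431 and 0.756 CPM in WT, too low to be tested. Summed CPM of all 10 was 456 and 522 in cKO and 396 and 421 in WT.

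Summed CPM of 6 oligodendrocyte precursor markers was 399 and 459 in cKO and 419 and 406 in WT. Gpr17 was called higher and Olig1 lower (edgeR), where 1.87% and 2.17% of all genes were. At an unadjusted p under 0.05, 2 of the 6 were higher and 1 lower, where 7.81% and 8.50% of all genes were. For other dividing or blood-borne cells the sums lay close together: 109 and 117 CPM in cKO and 119 and 117 CPM in WT for 6 microglia markers, 159 and 162 CPM in cKO and 156 and 157 CPM in WT for 5 endothelial markers, and 102 and 103 CPM in cKO and 102 and 101 CPM in WT for 5 erythroid markers. Sums of 4 meningeal fibroblast markers were 175 and 176 CPM in cKO and 155 and 175 CPM in WT, and those of 7 Bergmann glia and astrocyte markers 2782 and 2816 CPM in cKO and 3073 and 3084 CPM in WT. Of these 7 markers 1 was called higher and 2 lower (edgeR), where 1.87% and 2.17% of all genes were. Their median log2 fold change was 0.09, with 5 above 0 and 2 below it, so the lower sum does not describe most of them. The choroid plexus markers were high in cKO 1 (688 CPM), the cKO library with the lower mitotic levels, and at 41.9 CPM in cKO 2. Which cells carried the mitotic transcripts was not tested.

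The number of calls depended on the libraries and the tool. Without WT 1, the library with the male pattern, 4 of the 46 genes were called higher (Bub1b, Cenpf, Mki67 and Top2a; 1.0% of all genes), and Ccnb1, Foxm1, Plk1 and Cdc20 were no longer called, at log2 fold changes of 0.84, 0.88, 1.30 and 0.75. Without WT 2, 8 were called (1.52% of all genes), with Ccna2 and Tpx2 added and Plk1 lost at a log2 fold change of 1.60. DESeq2 called Cenpf alone (0.824% of all genes), and gave no adjusted p for 34 of the 46 genes. Without cKO 1 or without cKO 2 no gene of any kind was called by edgeR, with 22 of the 46 genes higher at an unadjusted p under 0.05 without cKO 1 (6.41% of all genes) and 5 without cKO 2 (4.91% of all genes), against 20 with all libraries. The median log2 fold change of the 46 was 0.86 without cKO 1 and 0.18 without cKO 2.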

How the data were processed

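The files hold raw counts, whole numbers for each gene symbol, which the authors made by trimming paired-end reads of 150 bp from poly(A) RNA with Trimmomatic 0.38, mapping with STAR 2.7.2b to GRCm38 (mm10) and counting them over exons with HTSeq. The sources used here do not state its strand setting. Titles gave groups and replicate numbers, and the description of each replicate 2 repeats the number of replicate 1. Entries outside genes (no feature, ambiguous, not unique or not aligned) were left out, and 40.4% and 40.5% of entries were in genes in cKO and 39.0% and 39.4% in WT.

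The members and lists were chosen with earlier results of these data known. Genes past filterByExpr (16617) were scaled by TMM (factors 0.986 to 1.02) and tested by the two-sided quasi-likelihood test of edgeR 4.0.16 in R 4.3.3, cKO against WT, with Benjamini-Hochberg adjustment over all genes and a threshold of 0.05. The biological coefficient of variation was 7.33%. Libraries of the same genotype were farther apart than counting error allows (chi-square over its degrees of freedom, 4.02 for cKO and 3.59 for WT) and were counted as separate samples. Standard errors were derived from fold changes and F values. The script was tested on simulated data. Gene positions and overlaps came from the GENCODE M21 annotation of GRCm38, and promoters from RefSeq. Genes given with full statistics were those past the threshold, the 2 with the highest mean CPM in each role group, and Top2a, Mki67, Cdk1 and Foxm1, and the other genes with values (Birc5, Spc25, Kifc1, Tpx2, Bub1, Ttk, Aurka, Cdca3, Ndc80, Mybl2 and Lin9) were added after their values were seen. Alternatives covered scaling, the count filter, DESeq2 1.42.0, limma-voom (limma 3.58.1), a replicate block, removal of X and Y genes, and removal of each library in turn, where the lone library of a genotype was taken to vary as much as the other genotype. Some marker genes of other cell types are not reported here.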

Additional observations from a re-analysis of the deposited data

How the results depend on the processing

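Of the 46 genes, 6 were called higher with upper-quartile scaling (1.44% of all genes) and 8 with library sizes alone (2.61%). With DESeq2 size factors 7 were called (1.79%), with a mean CPM of at least 1 also 7 (1.85%), and without X and Y genes 7 (1.99%). None of the 46 was called by edgeR without the count filter (0 higher, against 0.245% of all genes, smallest adjusted p 0.0510 over 28952 genes). At an unadjusted p under 0.05, 18 were higher there, against 4.38% of all genes. DESeq2 called 1 higher (0.824% of all genes) and limma-voom 4 (1.70% of all genes). Anln alone was called lower, making 1 lower call, with upper-quartile scaling, with limma-voom, with the replicate block and without X and Y genes. The replicate block gave 11 higher calls (adding Bub1b, Ccna2, Kifc1 and Tpx2), with 3.30% of all genes called higher, against 1.87% without it. No source pairs the replicate numbers, and deviations of same-numbered libraries correlated at r = 0.042 over genes, so the block is not read as a pairing. Leaving out each library gave 0 to 8 higher calls (0 without cKO 1 or cKO 2, 4 without WT 1, 8 without WT 2), 0 lower calls, and a median log2 fold change from 0.1805 (without cKO 2) to 0.8602 (without cKO 1). Limma-voom turned Cdca3 (-0.0644) and Ube2c (-0.0410) below 0. Without cKO 2, 14 genes turned below 0, and 7 did so without WT 1 and 1 without WT 2. Over the fits that leave out each library, the log2 fold changes of genes that changed sign ran from -0.29 to 0.76 for Cdk1, from -0.88 to 0.78 for Cdca3, from -0.67 to 0.99 for Ttk, from -0.64 to 0.53 for Ube2c, from -0.30 to 0.43 for Aurkb, from -0.011 to 0.18 for Incenp, from -0.13 to 0.41 for Cdca8, from -0.0796 to 1.33 for Cenpe, from -0.67 to 0.82 for Ndc80, from -0.23 to 0.91 for Nuf2, from -0.11 to 0.36 for Smc4, from -0.0624 to 0.21 for Kif22, from -0.45 to 0.98 for Kif23, from -0.013 to 0.47 for Prc1 and from -0.21 to 1.57 for Cep55. Of genes called higher, they ran from 0.23 to 1.47 for Mki67, 0.59 to 1.496 for Top2a, 0.67 to 1.44 for Foxm1, 0.81 to 1.71 for Ccnb1, 0.75 to 1.35 for Cdc20, 0.99 to 1.72 for Cenpf and 1.21 to 1.65 for Plk1, and of others from 0.06 to 1.40 for Tpx2 and 0.08 to 1.19 for Bub1. With 7 to 427 counts per gene and library and 2 libraries per group, differences of the size seen for Cdk1 or Aurka were not detectable. The cause of these changes was not tested.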
